A study of Mus musculus with 10 samples.

Results

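The 10 genes described here encode chaperones of the endoplasmic reticulum (ER) and components of the unfolded protein response: Hspa5, Hsp90b1, Xbp1, Dnajb9, Calr, Pdia4, Herpud1, Sdf2l1, Hyou1 and Creld2. They were taken by gene symbol from a table of 35275 genes, each symbol matched 1 row, and all 10 passed the filter on low counts that left 17435 genes for testing. Read counts were compared between 5 retina libraries of vehicle mice and 5 of mice given vigabatrin (VGB), a seizure medicine that blocks GABA transaminase, the enzyme that degrades GABA. All mice were C57BL/6 aged 10 to 12 weeks, and vigabatrin was delivered at 140 mg/kg/day for 11 days by an osmotic pump under the skin. The library titles call the controls untreated where the treatment label says vehicle, and the labels do not state what the vehicle was or that each library came from its own animal, so the p-values rest on the spread among libraries alone. Each library is called by its group and title number.

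The ER folds, glycosylates and disulphide-bonds proteins bound for membranes and secretion. When unfolded proteins accumulate there, the sensors IRE1, PERK and ATF6 leave the chaperone BiP and start the unfolded protein response: IRE1 splices the Xbp1 transcript so that it encodes an active transcription factor, ATF6 is cut in the Golgi to release another, and PERK phosphorylates eIF2alpha, which slows translation and favours ATF4. XBP1 and ATF6 raise the transcription of chaperones, folding enzymes and genes of ER-associated degradation. Rod photoreceptors rebuild their outer segments continually and carry a heavy load of rhodopsin through the ER, and misfolded rhodopsin is known to engage this response.

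Promoters were examined because the transcription factors of the response bind known elements upstream of these genes. As the elements were known beforehand in genes of this response, the counts below describe the promoters and are not a test of enrichment. The ER stress response element (ERSE, searched as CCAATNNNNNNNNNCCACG on both strands) is bound by NF-Y at its first part and by ATF6 or XBP1 at its last. ERSE-II (searched as ATTGGNCCACG) holds the same half-sites closer together. RefSeq promoters (GRCm38.p6, 250 bases before to 50 after the transcription start) were found for 9 of the 10 genes, all but Hyou1. An ERSE was present in 4 of these 9, against 0.119% of all 32851 promoters in the set. Hspa5 had 1 at -65 to -47 from the start, Hsp90b1 had 2, at -212 to -194 and -107 to -89, Calr had 1 at -162 to -144 and Creld2 had 1 at -126 to -108. An ERSE-II was present in Herpud1 alone of the 9, at -52 to -42, against 0.0365% of all promoters. The unfolded protein response element (searched as TGACGTGG) was in 0 of 9, against 0.676% of all promoters, and these letters were absent from these windows only. The half-site CCACG, which lies within both ERSE forms, was in 8 of 9 and in 32.8% of all promoters, and CCAAT was also in 8 of 9 and in 37.4% of all. Xbp1 had neither half-site in its window, and the promoters of Dnajb9, Pdia4 and Sdf2l1 held half-sites without a full element. The promoters of 5 genes are printed because their transcripts stood apart in the same vehicle library, described below, Hspa5, Calr and Herpud1 as the highest and Creld2 and Pdia4 as the lowest of all 10 libraries. Capitals mark a full element, or in Pdia4, which has none, the half-sites CCACG and CCAAT on either strand.
Hspa5, chr2:34771840-34772139, strand +: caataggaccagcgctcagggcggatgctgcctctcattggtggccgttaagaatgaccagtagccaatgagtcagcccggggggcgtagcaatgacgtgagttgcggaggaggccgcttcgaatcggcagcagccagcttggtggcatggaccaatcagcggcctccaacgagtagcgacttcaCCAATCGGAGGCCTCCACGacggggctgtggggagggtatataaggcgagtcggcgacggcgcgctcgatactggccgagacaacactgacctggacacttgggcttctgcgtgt
Calr, chr8:84846882-84847181, strand -: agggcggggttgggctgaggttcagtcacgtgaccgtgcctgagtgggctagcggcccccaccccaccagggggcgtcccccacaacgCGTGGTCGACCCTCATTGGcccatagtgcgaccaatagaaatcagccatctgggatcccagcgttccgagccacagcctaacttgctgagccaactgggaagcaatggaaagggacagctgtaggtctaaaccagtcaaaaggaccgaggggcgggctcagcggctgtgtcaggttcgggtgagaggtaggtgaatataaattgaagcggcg
Herpud1, chr8:94386179-94386478, strand +: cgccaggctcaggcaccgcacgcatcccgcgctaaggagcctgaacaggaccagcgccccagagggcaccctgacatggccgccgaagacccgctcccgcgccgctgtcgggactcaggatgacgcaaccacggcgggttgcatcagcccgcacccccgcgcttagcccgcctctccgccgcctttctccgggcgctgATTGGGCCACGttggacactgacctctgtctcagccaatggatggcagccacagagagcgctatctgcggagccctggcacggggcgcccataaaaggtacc
Creld2, chr15:88819396-88819695, strand +: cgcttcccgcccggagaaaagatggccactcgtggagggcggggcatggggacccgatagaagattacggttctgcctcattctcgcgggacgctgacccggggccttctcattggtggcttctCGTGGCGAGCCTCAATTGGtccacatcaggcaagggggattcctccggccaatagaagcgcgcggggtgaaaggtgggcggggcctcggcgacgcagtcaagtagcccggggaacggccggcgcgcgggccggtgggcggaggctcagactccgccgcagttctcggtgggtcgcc
Pdia4, chr6:47813463-47813762, strand -: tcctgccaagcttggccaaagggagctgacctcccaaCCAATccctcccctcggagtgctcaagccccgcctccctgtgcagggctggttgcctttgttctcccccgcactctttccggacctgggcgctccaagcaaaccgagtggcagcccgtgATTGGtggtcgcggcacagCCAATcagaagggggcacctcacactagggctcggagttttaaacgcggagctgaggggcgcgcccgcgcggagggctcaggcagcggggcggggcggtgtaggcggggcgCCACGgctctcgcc

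Total counts ranged from 36056135 to 54052502 per library. The members had between 186 counts (Sdf2l1, vehicle 2345 library) and 15761 counts (Calr, vehicle 832). The tissue label was borne out by retinal markers: 7 rod genes summed to 56627 to 63091 CPM (read counts scaled to the library size) in every library. Carried-over tissue differed between libraries. The 9 lens genes found summed to 1.83% and 1.23% of counts in vehicle 835 and 1582 and to 1.87% and 1.65% in vigabatrin 2344 and 2429, against at most 0.0939% in the other 6. Vehicle 835 also had the most pigment epithelium and choroid transcripts (10 genes, 1014 CPM, where the other vehicle libraries had 23.0 to 328 and the vigabatrin libraries 11.2 to 411).

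Per kilobase of gene length, Calr was the most abundant member in vehicle retina, and the 3 major chaperones stood well above the rest. Calreticulin, the product of Calr, is a calcium-binding lectin chaperone that holds newly made glycoproteins, and its transcript measured 139 ± 6.99 CPM per kilobase in vehicle (SD, n = 5). BiP (Hspa5), the ER HSP70 that binds unfolded chains and restrains the sensors, measured 76.4 ± 4.64, and GRP94 (Hsp90b1), the ER HSP90, measured 71.4 ± 2.63 on the same scale. Hspa5 exceeded Hsp90b1 in 4 of 5 vehicle libraries with a mean ratio of 1.07 ± 0.0755, so these neighbours did not differ beyond their spread, whereas Calr exceeded Hspa5 in 5 of 5 at a ratio of 1.82 ± 0.0693. Hsp90b1 in turn exceeded the next gene 2.27 ± 0.252-fold. That group held Herpud1 (31.7 ± 3.48), Xbp1 (28.6 ± 2.52), Pdia4 (24.1 ± 3.19) and Hyou1 (23.3 ± 1.79 CPM per kilobase). Herpud1 exceeded Xbp1 in 5 of 5 vehicle libraries and Pdia4 exceeded Hyou1 in 4 of 5, but the ratios of 1.12 ± 0.154 and 1.03 ± 0.0663 lay within their SD of 1. In the vigabatrin libraries the counts were also 5 of 5 and 4 of 5, so Herpud1 was above Xbp1 in every library. Xbp1 exceeded Pdia4 in 4 of 5 vehicle libraries at a ratio of 1.21 ± 0.194, slightly beyond its SD. Creld2 (17.9 ± 3.17) and Dnajb9 (12.9 ± 0.571) followed, and Sdf2l1, a component of the BiP chaperone complex, was the scarcest at 4.60 ± 0.253 CPM per kilobase. After vigabatrin the order of the 10 mean levels was the same, from 127 ± 5.87 for Calr to 4.20 ± 0.340 CPM per kilobase for Sdf2l1.

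**Figure D1:**
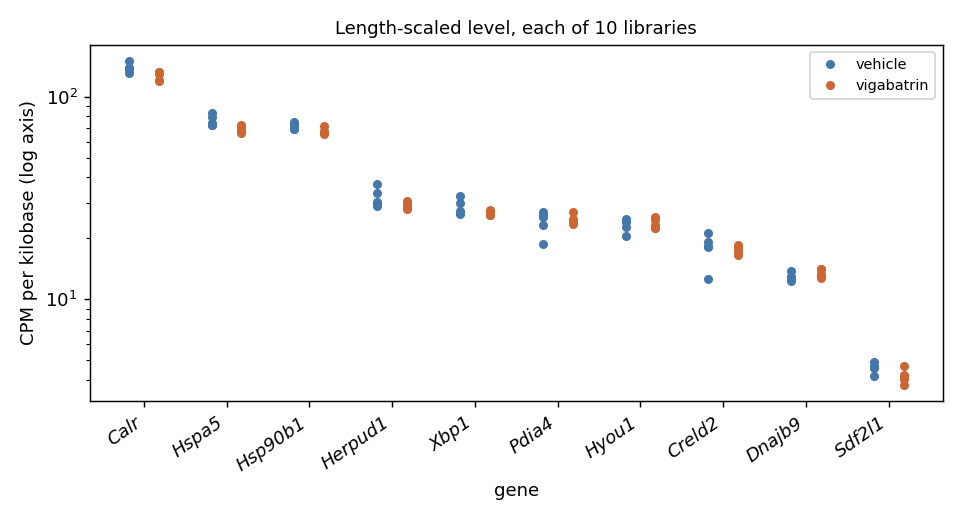
Level of each gene in CPM per kilobase of deposited gene length (log axis), 1 point per library, vehicle in blue and vigabatrin in orange. Calr lies at the top (139 in vehicle) and Sdf2l1 at the bottom (4.60), and the order of the group means is the same in both groups.

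None of the 10 genes passed the test after vigabatrin (edgeR quasi-likelihood test, Benjamini-Hochberg adjusted p under 0.05 over all genes), where 1 of 17435 genes did (0.00574%). DESeq2 and limma-voom also called 0 members, while DESeq2 called 0.488% of all genes. Mean levels were lower after vigabatrin for 7 members and higher for 3, with a median log2 fold change of -0.09, against 50.6% lower and a median of -0.001 over all genes tested. At an unadjusted p under 0.05 there were 2 lower members, Hspa5 and Calr, and 0 higher, where 3.69% of all genes were lower and 3.68% higher. In whole retina, fewer cells of a type and less RNA per cell cannot be told apart. In this fit the 95% intervals of all 10 changes lay within a 1.25-fold change in either direction, Sdf2l1 only just, with a lower limit of -19.7%. This does not extend to the fit with a term for the range of title numbers, described below. There the SE was 0.20 for Creld2 and 0.15 for Sdf2l1, against 0.11 and 0.08 here.

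Among the chaperones that bind unfolded chains, Hspa5 (ENSMUSG00000026864, chromosome 2 from 34771970 to 34776531, plus strand, mm10) separated the groups narrowly. Its level was 190.1, 217, 194, 207 and 189.7 CPM in vehicle 832, 835, 1580, 1582 and 2345, and 189, 186, 185, 173 and 179 CPM in vigabatrin 2344, 2347, 2349, 2428 and 2429. All 5 vigabatrin libraries were below all 5 vehicle libraries, as for 0.631% of all genes in this direction, but the lowest vehicle library exceeded the highest vigabatrin library by only 0.771 CPM. With upper quartile scaling the groups overlapped by 0.334 CPM, the highest vigabatrin library being at 188.9 and the lowest vehicle library at 188.6 CPM. The fitted log2 fold change was -0.13 (SE 0.05, edgeR adjusted p = 0.588), a change of -8.56% with a 95% interval from -14.7% to -1.96%. These intervals are not widened for the number of genes tested. The log2 fold change of Hspa5 was -0.10 without vehicle 835 and -0.07 without the 4 lens-rich libraries. With the pigment epithelium level as a term in the fit it was -0.10.

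Hsp90b1 (ENSMUSG00000020048, chromosome 10 from 86690209 to 86705509, minus strand), which folds a narrower set of clients such as integrins and Toll-like receptors, averaged 230.0 ± 8.46 CPM in the vehicle group and 217 ± 7.25 CPM in the vigabatrin group (SD, n = 5 each). The vehicle libraries ran from 222 to 243 CPM and the vigabatrin libraries from 211 to 229 CPM, with vigabatrin 2349 alone above the lowest vehicle library. Its log2 fold change was -0.08 (SE 0.04, edgeR adjusted p = 0.677). Hyou1 (ENSMUSG00000032115, chromosome 9 from 44379490 to 44392369, plus strand), an HSP110-type partner that exchanges nucleotide on BiP, measured 115 ± 8.81 and 116 ± 6.40 CPM. Its log2 fold change of 0.02 (SE 0.06, edgeR adjusted p = 0.963) turned to -0.02 without vehicle 835, the vehicle library with the lowest Hyou1. Sdf2l1 (ENSMUSG00000022769, chromosome 16 from 17130138 to 17132383, minus strand) had 5.22, 4.67, 5.06, 5.43 and 5.13 CPM in vehicle 832, 835, 1580, 1582 and 2345 and 4.47, 4.66, 5.22, 4.71 and 4.19 CPM in vigabatrin 2344, 2347, 2349, 2428 and 2429. The groups overlapped through vehicle 835 and vigabatrin 2349, and the log2 fold change of -0.13 had the widest error among the members with lower means other than Creld2 (SE 0.08, edgeR adjusted p = 0.772). Dnajb9 (ENSMUSG00000014905, chromosome 12 from 44205897 to 44210068, minus strand), an HSP40 co-chaperone that returns BiP to IRE1, was the member with the largest positive change, from 24.1 ± 1.06 to 25.1 ± 1.10 CPM. That log2 fold change of 0.06 (SE 0.05, edgeR adjusted p = 0.825) stayed positive when any 1 library was left out (0.04 to 0.09).

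Calr (ENSMUSG00000003814, chromosome 8 from 84841850 to 84846934, minus strand), the lectin chaperone, measured 303, 328, 301, 298 and 286 CPM in vehicle 832, 835, 1580, 1582 and 2345 and 287, 289, 281, 265 and 261 CPM in vigabatrin 2344, 2347, 2349, 2428 and 2429. Of the vehicle libraries, 4 lay above all vigabatrin libraries and vehicle 2345 lay among them. The log2 fold change was -0.13 (SE 0.05, edgeR adjusted p = 0.583), or -8.61% with a 95% interval from -14.7% to -2.03%. It was -0.10 without vehicle 835, -0.09 without the 4 lens-rich libraries and -0.11 with the pigment epithelium level as a term. Pdia4 (ENSMUSG00000025823, chromosome 6 from 47796142 to 47813512, minus strand), a protein disulphide isomerase, measured 59.6 ± 7.91 and 61.3 ± 3.25 CPM, with a log2 fold change of 0.04 (SE 0.09, edgeR adjusted p = 0.949) that was -0.04 without vehicle 835. Creld2 (ENSMUSG00000023272, chromosome 15 from 88819646 to 88826681, plus strand), an ER-resident protein with disulphide isomerase activity, measured 24.4 ± 4.32 and 24.2 ± 1.07 CPM. Its log2 fold change of -0.01 had the largest standard error of the 10 (0.11, edgeR adjusted p = 0.990), and its interval ran from -16.5% to 17.5%. Without vehicle 835 it measured -0.12 and without vehicle 1580 it measured 0.05.

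Xbp1 (ENSMUSG00000020484, chromosome 11 from 5520659 to 5525893, plus strand) measured 58.4, 56.9, 63.7, 68.9 and 56.3 CPM in vehicle 832, 835, 1580, 1582 and 2345. After vigabatrin it measured 56.4, 57.6, 58.6, 55.8 and 55.8 CPM in vigabatrin 2344, 2347, 2349, 2428 and 2429. Vehicle 1580 and 1582 stood above every vigabatrin library and the other 3 vehicle libraries lay within their range, so that the log2 fold change of -0.10 (SE 0.06, edgeR adjusted p = 0.744) was -0.05 without vehicle 1582. Counts per gene do not separate spliced from unspliced Xbp1, so the activity of IRE1 was not measured. Herpud1 (ENSMUSG00000031770, chromosome 8 from 94386438 to 94395377, plus strand) encodes a membrane protein that helps assemble the HRD1 ubiquitin ligase for ER-associated degradation. It measured 57.0, 72.3, 58.9, 65.0 and 56.2 CPM in the vehicle libraries in the same order, and 56.6, 54.6, 55.7, 59.7 and 57.4 CPM in the vigabatrin libraries. Vehicle 835 and 1582 alone exceeded the vigabatrin range, and the log2 fold change of -0.12 (SE 0.07, edgeR adjusted p = 0.733) was -0.06 without vehicle 835 and -0.02 without the 4 lens-rich libraries.

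**Figure D2:**
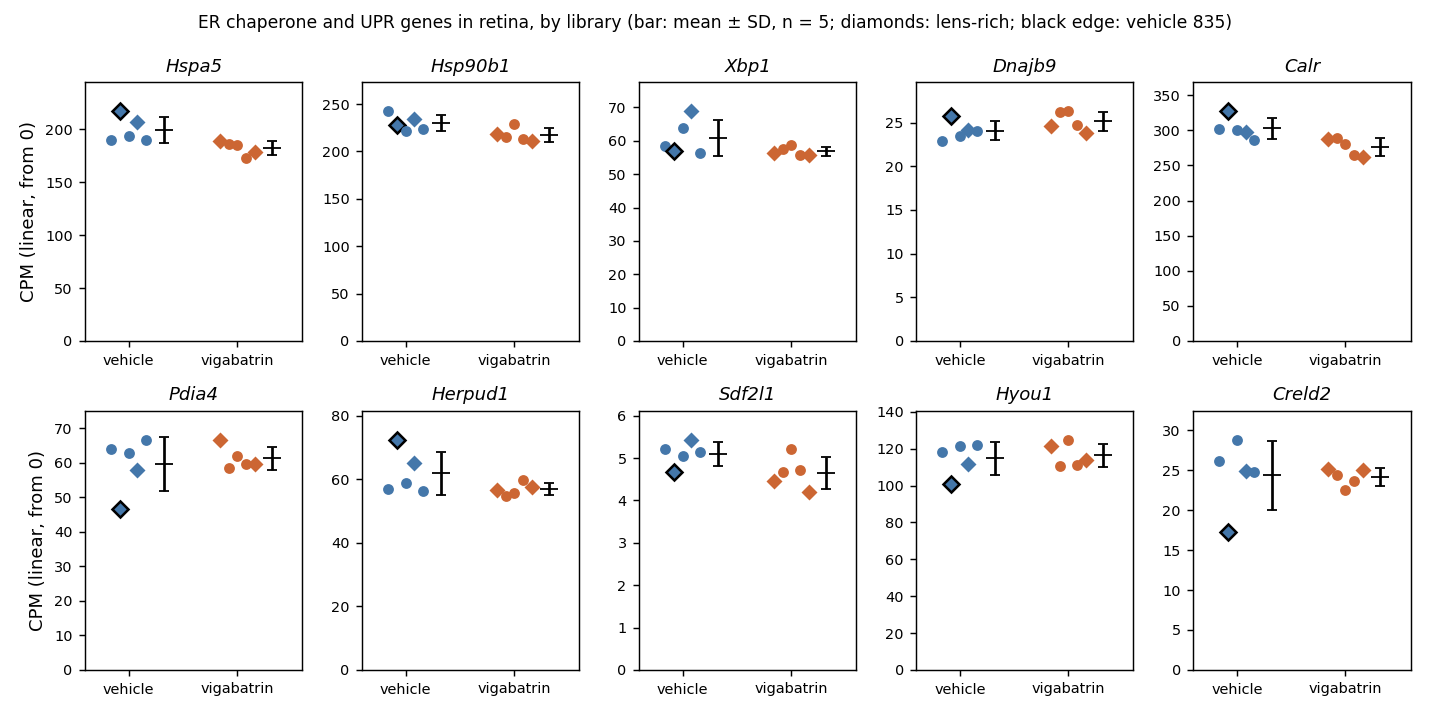
CPM of each gene (linear axis from 0) by library, vehicle in blue and vigabatrin in orange, with the mean and SD of 5 libraries beside each group; diamonds are the 4 lens-rich libraries and a black edge marks vehicle 835. The groups are close in every panel, and vehicle 835 is the highest library for Hspa5, Calr and Herpud1 and the lowest for Pdia4, Hyou1 and Creld2.

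The title numbers fall into 832 to 1582, held by 4 vehicle libraries, and 2344 to 2429, held by all vigabatrin libraries and vehicle 2345. What these numbers stand for is not given in the sources used here, and treatment and number range cannot be told apart beyond that 1 library. Vehicle 2345 was the lowest vehicle library for Hspa5, Xbp1, Calr and Herpud1, which are 4 of the 7 members with lower means after vigabatrin. Its Calr level of 286 CPM lay within the vigabatrin range of 261 to 289 CPM, as did its Xbp1 level of 56.3 CPM (55.8 to 58.6) and its Herpud1 level of 56.2 CPM (54.6 to 59.7). Lower-numbered vehicle libraries did so too, 832 and 835 for Xbp1 (58.4 and 56.9 CPM) and 832 and 1580 for Herpud1 (57.0 and 58.9 CPM). For Hspa5, vehicle 832 was close to vehicle 2345, at 190.1 against 189.7 CPM. With the number range as a term, Hspa5 measured -0.06 (SE 0.08), Calr -0.05 (SE 0.08), Xbp1 0.01 (SE 0.09) and Herpud1 0.02 (SE 0.11), and the median of the 10 log2 fold changes was -0.04. Sdf2l1 measured -0.14 (SE 0.15) and Dnajb9 0.06 (SE 0.09), and for each gene given with this term the SE exceeded the size of the change. Without vehicle 2345 the median of the members was -0.11 and edgeR called 39 genes (0.221% of those tested), 0 of them members.

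**Figure D3:**
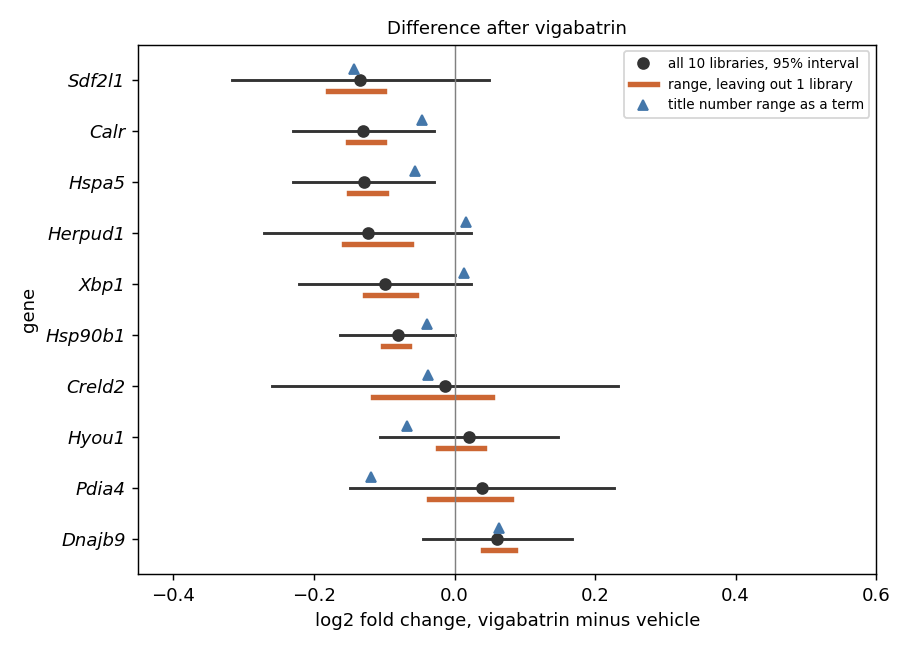
Log2 fold change of each gene, vigabatrin minus vehicle, with its 95% interval over all 10 libraries (black), the range when 1 library is left out (orange bar) and the value with a term for the number range (blue triangle). Intervals of Hspa5 and Calr lie below 0 before any adjustment, and their triangles lie closer to 0, at -0.06 and -0.05.

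The likeness of the members between libraries depended on which libraries were counted. Of their 45 pairs, 27 had a positive Pearson correlation of log2 CPM over the 10 libraries, with a median r of 0.09 and a range from -0.84 to 0.91. These correlations are descriptions of 10 libraries that share their tissue and differ in carried-over tissue and depth, and the pairs below were named after their values were seen. Without vehicle 835, 32 of the 45 were positive, with a median of 0.23 and a range from -0.73 to 0.84, and 9 of the 13 negative pairs held Dnajb9. In the 6 libraries that are not lens-rich, 31 were positive, with a median of 0.33. Between all 10 libraries and those without vehicle 835, 13 pairs changed sign, and 18 did between all 10 and those 6. In vehicle 835, Herpud1 stood at 122% of the mean of the other 4 vehicle libraries, Hspa5 at 111% and Calr at 110%, each the highest of all 10 libraries. In the same library Creld2 stood at 65.7%, Pdia4 at 74.2% and Hyou1 at 85.3%, each the lowest of all 10. In CPM, Pdia4 was 64.2, 46.7, 62.9, 57.9 and 66.6 and Creld2 was 26.2, 17.2, 28.8, 24.9 and 24.8 in vehicle 832, 835, 1580, 1582 and 2345. Thus chaperone transcripts of the same response lay apart in opposite directions within 1 library. Its lens share (1.83%) was matched by vigabatrin 2344 (1.87%), where Pdia4 was 66.7, Creld2 25.2 and Herpud1 56.6 CPM. Hspa5 in vigabatrin 2344 was 189 CPM, the highest of the vigabatrin group, with Calr at 287 and Hyou1 at 122 CPM. In vehicle 1582, also lens-rich (1.23%), Hspa5 (207 CPM) and Herpud1 (65.0 CPM) were the highest after vehicle 835. Pdia4 in vehicle 1582 (57.9 CPM) was the lowest after vehicle 835. Calr (298 CPM), Hyou1 (112 CPM) and Creld2 (24.9 CPM) in vehicle 1582 did not rank next to vehicle 835. In lens-rich vigabatrin 2429 (1.65%), Hspa5 was 179, Herpud1 57.4 and Pdia4 59.8 CPM. Vehicle 835 also led in pigment epithelium and choroid (1014 CPM), in 6 fibroblast and sclera genes (148 CPM, others 21.3 to 116) and in 5 Muller glia genes (5836 CPM, others 4652 to 5366). Over the 10 libraries, r with the pigment epithelium and choroid level was 0.71 for Hspa5, 0.63 for Calr and 0.56 for Herpud1. It was -0.48 for Pdia4, -0.55 for Hyou1 and -0.40 for Creld2. Vehicle 835 is among these libraries, and the part of these tissues in its member levels was not tested.

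Several pairs kept their likeness under both subsets, and 4 of them are given here. Pdia4 and Hyou1 had r = 0.91 and Spearman's rho = 0.82 over 10 libraries and r = 0.81 without vehicle 835. Hspa5 and Calr had r = 0.90 and rho = 0.89, and r = 0.81 without vehicle 835. Hsp90b1 and Sdf2l1 had r = 0.77 and rho = 0.84, and 0.82 without it, while Dnajb9 and Creld2 were opposed, at r = -0.64 and rho = -0.84, and -0.73 without it. After the 2 libraries farthest from the median of the first-named gene were left out, these 4 pairs had r = 0.80, 0.73, 0.70 and -0.84, and in the 6 libraries that are not lens-rich 0.75, 0.92, 0.84 and -0.76. Others moved closer to 0 without vehicle 835: Pdia4 and Creld2 went from 0.83 to 0.26, Hyou1 and Creld2 from 0.69 to 0.14, Pdia4 and Herpud1 from -0.84 to -0.44, and Hspa5 and Pdia4 from -0.59 to 0.04 (0.60 in those 6). Others became more alike without it: Hspa5 and Xbp1 went from 0.49 to 0.84, Xbp1 and Herpud1 from 0.29 to 0.75, Calr and Sdf2l1 from 0.39 to 0.68, and Calr and Creld2 from -0.39 to 0.55. The spread within vehicle exceeded that within vigabatrin for 9 of 10 members by coefficient of variation, and for 6 of 10 without vehicle 835. Creld2 showed the widest such gap, 17.7% in vehicle and 4.44% in vigabatrin, and its vehicle value was 7.09% without vehicle 835.

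**Figure D4:**
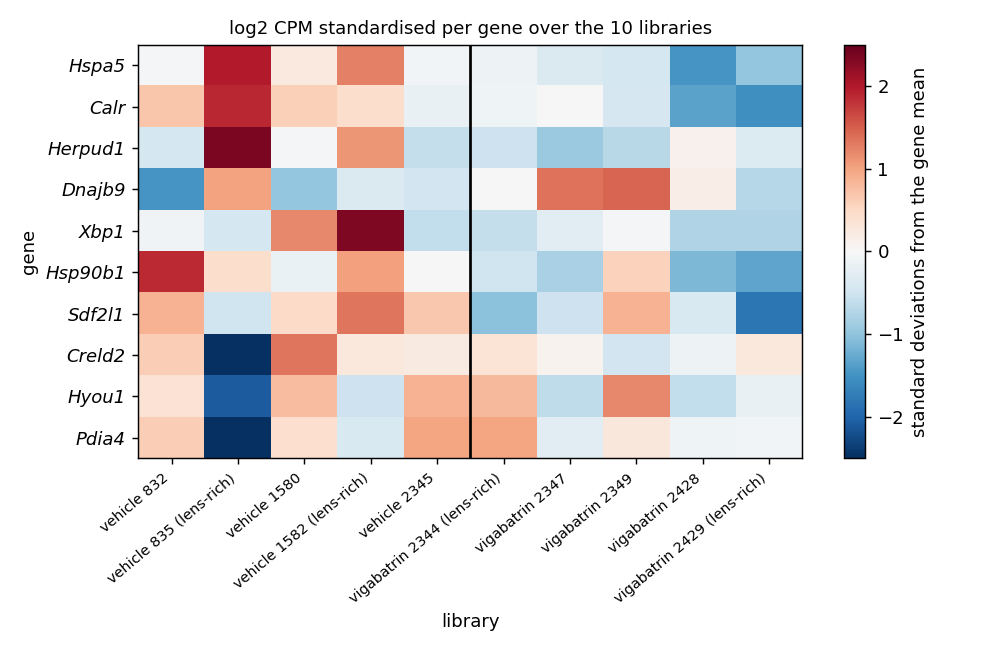
Log2 CPM of each gene (rows) in each library (columns), standardised per gene, with vehicle left of the black line. Vehicle 835 is the darkest column, red for Hspa5, Calr and Herpud1 and blue for Creld2, Hyou1 and Pdia4, and vigabatrin 2428 and 2429 are blue for Hspa5, Calr and Hsp90b1.

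The tested genes most like the mean standardised profile of the 10 members over the 10 libraries, leaving out the lists below and predicted genes, were Hcls1 (r = 0.91), Fam78b and Gbx2 (0.88 each), Hcrtr1, Galnt11, Smim11, Rrad and Rnf145 (0.86 to 0.85). The same measure was -0.004 at the median of all genes. As the named genes were picked for the highest r, that median cannot show whether their r exceeds what selection alone gives. Each named gene had a lower mean after vigabatrin, with log2 fold changes from -0.44 (Hcrtr1) to -0.07 (Galnt11). Their r can in part restate the group difference, and r with group means removed is not given for them. Gbx2 and Rrad were scarce, at means of 0.756 and 1.01 CPM in vehicle. Measured against the mean of the other 9 members, r was 0.79 for Sdf2l1 and 0.70 for Hsp90b1, but -0.38 for Dnajb9 and -0.12 for Pdia4. After the mean of each group was removed, these were 0.57, 0.51, 0.11 and -0.11, so that the sign for Dnajb9 changed. The r of Dnajb9 with Hspa5 went from 0.08 to 0.68 and with Calr from 0.06 to 0.66. With Creld2 it went from -0.64 to -0.73.

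The sensors and other genes of protein folding also held 0 genes past the test (edgeR). Of 11 genes for the sensors and their processing, 7 had higher and 4 lower means (median 0.04). Ern1, which encodes IRE1, measured 74.6, 81.8, 69.3, 68.2 and 65.5 CPM in vehicle 832, 835, 1580, 1582 and 2345 and 65.3, 57.8, 61.1, 64.1 and 63.6 CPM in vigabatrin 2344, 2347, 2349, 2428 and 2429. The groups did not overlap (lower, 0.631% of all genes), but vehicle 2345 exceeded vigabatrin 2344 by less than the spread of either group. Its log2 fold change was -0.20 (SE 0.06, edgeR adjusted p = 0.501), and -0.07 with a term for the number range. Eif2ak3, which encodes PERK, measured -0.07 (SE 0.04), Atf6 measured 0.06 (SE 0.04) and Traf2, an adaptor of IRE1, 0.12 (SE 0.08), and all 3 changed sign with that term.

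Of 32 further ER chaperones and folding enzymes, 22 had lower and 10 higher means (median -0.02). Manf, a secreted ER stress protein with neurotrophic activity, went from 30.8 ± 2.60 to 26.8 ± 1.19 CPM (SD, n = 5 each; log2 fold change -0.20, SE 0.06, edgeR adjusted p = 0.506) and measured -0.05 with a term for the number range. Ppib, a prolyl isomerase, measured -0.13, Fkbp2, another, -0.11, Pdia6 -0.06 and Dnajb11 -0.03, while Ero1l, the oxidase that recharges disulphide isomerases, measured 0.14 (SE 0.06, edgeR adjusted p = 0.660). Of 23 tested genes of ER-associated degradation 15 had lower means (median -0.01), among them Vimp at -0.18, Ube2g2 and Rnf139 at -0.11 each and Faf2 at -0.07, whereas Sel1l, the partner of HRD1, measured 0.01. Of 20 tested genes of ER translocation and signal peptide removal 12 had lower means (median -0.005), with Sec61b, a subunit of the translocon, at -0.21, Ssr4 at -0.10, Spcs3 at 0.10 and Srprb at 0.09.

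The PERK and ATF4 arm spread widest. Of 19 genes 15 had lower and 4 higher means, with a median of -0.07 and a range from -0.63 to 0.98. At an unadjusted edgeR p under 0.05, 4 were lower and 2 higher, where 3.69% and 3.68% of all genes were. Atf4 measured 173, 204, 189, 199 and 160.1 CPM in vehicle 832, 835, 1580, 1582 and 2345 and 141, 165, 162, 164 and 149 CPM in vigabatrin 2344, 2347, 2349, 2428 and 2429. Vehicle 2345 fell among the vigabatrin libraries, and the log2 fold change of -0.24 (SE 0.07, edgeR adjusted p = 0.501) was -0.04 with a term for the number range and -0.09 without the 4 lens-rich libraries. Chac1, a target of ATF4 that degrades glutathione, measured -0.45, Atf3 -0.32 and Ddit3, which encodes CHOP, -0.08. Atf5, a further transcription factor of this arm, was 1 of the 4 genes with higher means. It went from 23.4 ± 1.25 to 46.1 ± 11.0 CPM (log2 fold change 0.98, SE 0.13, edgeR adjusted p = 0.104). All 5 vigabatrin libraries (37.4 to 64.2 CPM) were above all 5 vehicle libraries (22.4 to 25.5 CPM), as for 0.849% of all genes in this direction. With a term for the number range Atf5 measured 0.99, but 0 genes over the whole table were called with that term. In that fit vehicle 2345 is the only vehicle library of the higher number range. Beside it, the 10 ER members had fitted changes no larger than 0.13 in size.

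No cytosolic or mitochondrial chaperone listed passed the edgeR test. At an unadjusted edgeR p under 0.05 there were 3 lower and 0 higher of 22 cytosolic genes, and 1 lower and 0 higher of 10 mitochondrial. Over all genes tested, 3.69% were lower and 3.68% higher at that threshold. Of 22 cytosolic heat shock genes 12 had lower means (median -0.02), with Hsph1 at -0.17, Ahsa1 at -0.13, Dnaja1 at -0.10 and Bag3 at -0.20 (SE 0.17). Of 10 mitochondrial chaperones and proteases 9 had lower means (median -0.06), with Trap1 at -0.10 and Clpp, Grpel2 and Clpx at -0.08 each. Differences between these lists and the 10 members were not tested.

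**Figure D5:**
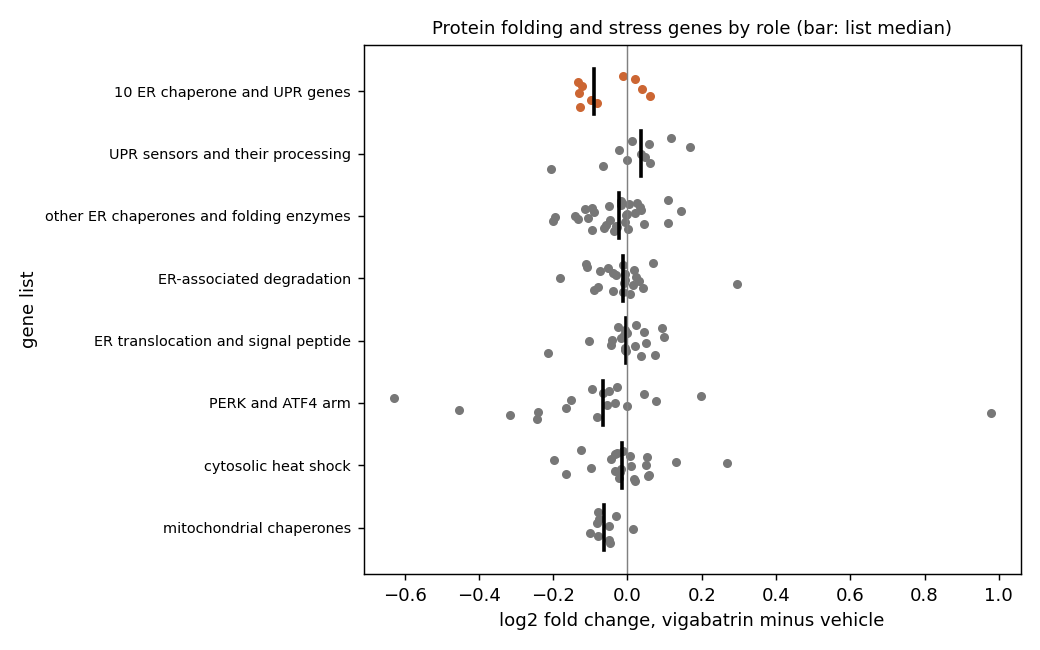
Log2 fold change, vigabatrin minus vehicle, of every tested gene in the 10 ER chaperone and UPR genes (orange) and in 7 other lists (grey), 1 point per gene, with the list median as a black bar. The 10 genes lie between -0.13 and 0.06, within the span of the other ER lists, and Atf5 is the point at 0.98 in the PERK and ATF4 arm.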

How the data were processed

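The authors deposited unnormalized read counts for each Ensembl gene. HTSeq 0.6.1, DESeq2, edgeR 3.16.5 and the build mm10 are named per the submitters' processing notes. Aligner, annotation and strandedness: not given in the sources used here. Hsp90b1 overlaps 2 other genes (at most 139 and 194 counts) and Herpud1 overlaps 1 (at most 13 counts), so reads in those stretches may not have been assigned with certainty. Hsp90b1 itself had at least 8095 counts per library and Herpud1 at least 2035. The deposited table also held gene lengths, used for CPM per kilobase, and 1 count column that matches no sample and entered no step.

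Counts were filtered (filterByExpr), scaled by TMM and tested in edgeR 4.0.16 (glmQLFit, then glmQLFTest, in R 4.3.3 with limma 3.58.1). The model held the group alone, and p-values were adjusted by Benjamini-Hochberg over 17435 genes. The fit was also run on simulated counts, where its median estimates were checked against the changes put in. Those counts held no carried-over tissue or number range difference. The share of small changes that the test would miss is not given here. Standard errors are the log2 fold change over the root of F. Correlations used log2 CPM with a prior count of 0.125. Promoters came from RefSeq (GRCm38.p6, the same assembly as mm10). Pairs of libraries within a group differed by more than counting error (chi-square over its degrees of freedom from 7.98 to 129.9), so none was merged.

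The 10 members and all lists were chosen with earlier results of these data known. Besides the members, the genes named were the 4 of smallest p per list, 10 set sensors and targets, and the 8 most like the members' mean. Alternatives covered scaling, filters, DESeq2 1.42.0, limma-voom, each library left out, lens-rich libraries left out, and terms for title number range, lens and pigment epithelium. Of the 26 degradation genes listed, 3 symbols were not matched.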

Additional observations from a re-analysis of the deposited data

Results flagged for a closer look

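In 102 groups of 5 libraries examined for the genes named and the members' mean, 4 had 1 library well apart from the rest. About 5.1 such groups (1 in 20) arise by chance. None concerned a member. Vehicle 2345 was low for Eif2ak3 at 44.7 CPM, against 48.7 to 49.6 in the other vehicle libraries, and for Trap1 at 53.5 CPM, against 57.4 to 58.8. Vigabatrin 2344, a lens-rich library, was high for Bag3 at 10.3 CPM, against 6.68 to 7.55. Gbx2 was lowest in vigabatrin 2429, at 0.443 CPM, with the rest at 0.616 to 0.629.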

How the results depend on the processing

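No member was called under any of the 21 alternatives, and 7 members had lower means under each of the 3 other scalings. The count of genes called over the whole table was 0 with library size alone, without a low-count filter, without the 4 lens-rich libraries, and with a term for title numbers, lens or pigment epithelium (343 to 1512 genes at an unadjusted p under 0.05). It was 85 by DESeq2, 3 by limma-voom and 0 to 39 with 1 library left out. The median of the members was -0.042 with a term for the title numbers. With that term Xbp1 (0.013), Herpud1 (0.016), Pdia4 (-0.119), Hyou1 (-0.068), Eif2ak3 (0.043), Atf6 (-0.034), Traf2 (-0.074), Ppib (0.032), Fkbp2 (0.028), Ube2g2 (0.0016), Ssr4 (0.043), Bag3 (0.114), Trap1 (9.034e-05), Ddit3 (0.092), Dnajb11 (0.047), Pdia6 (0.029), Sel1l (-0.075) and Galnt11 (0.0196) changed sign. Without the lens-rich libraries Pdia4 (-0.104), Hyou1 (-0.061) and Sel1l (-0.0296) did, as did 18 of the 45 correlations between members, among them Pdia4 with Herpud1 (3.104e-04), Hspa5 with Herpud1 (-0.341) and Hspa5 with Pdia4 (0.60). By limma-voom Pdia4 measured -0.032 and Hyou1 -0.021, and with pigment epithelium as a term Hyou1 measured -0.0045. With 1 library left out, Pdia4 ranged from -0.037 to 0.081, Hyou1 from -0.023 to 0.042, Creld2 from -0.116 to 0.053, Dnajb11 from -0.0503 to 6.237e-04 and Sel1l from -0.016 to 0.028. Atf5 was called by DESeq2 (adjusted p = 1.590e-09) and without vehicle 2345 (0.0414) or vigabatrin 2347 (0.0201). The cause of these changes was not tested. No paired analysis was possible because the groups share no title numbers. Depth limits Sdf2l1 most, with 186 to 272 counts per library.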
